A study of Mus musculus with 30 samples.

Results

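The 6 genes Runx2, Sp7, Dlx3, Dlx5, Dlx6 and Msx2, which encode osteoblast transcription factors, were followed in fracture callus RNA. They were taken by symbol from a table of raw read counts for 43629 genes, and all 6 were found there by their Ensembl identifiers. The 30 libraries came from male C57BL/6J mice aged 20 weeks that underwent an open tibial fracture osteotomy of the right hindlimb, stabilized with an intramedullary nail. Lean mice received a control diet, and their calli were taken on d3, d5, d7 or d10 after fracture. Diet-induced obese (DIO) mice received a high-fat diet, and their calli were taken on these 4 days and on d14 or d21. Each group held 3 mice and each library came from the callus of 1 mouse, with the diet kept until harvest. The groups had no genetic difference by design, and the callus was extracted whole, so that cartilage, bone, marrow, muscle and immune cells entered the same library. The last 2 time points are therefore described for DIO mice alone, and Lean calli of that age were not analysed here.

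Osteoblasts arise from mesenchymal progenitors under a small set of DNA-binding proteins. RUNX2, a runt-domain protein that binds DNA with its partner CBFB, is required for the lineage to form and is also made by hypertrophic chondrocytes, and SP7 (osterix), a zinc finger protein, acts downstream of it. DLX3, DLX5 and DLX6 are homeodomain proteins that respond to BMP signals and activate osteoblast genes, whereas MSX2 is a homeodomain repressor that can oppose them. Dlx3 is also a gene of the epidermis and hair follicle.

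The 4 homeobox members share the residues Trp-Phe-Gln-Asn in the recognition helix of the homeodomain, which lies in the major groove of DNA. A stretch of 42 bases around the codons for Trp-Phe-Gln-Asn is shown for each, read from GENCODE M21 transcripts on GRCm38, because it lets the relatedness of the genes be seen and shows how far reads of one could be taken for another. Bases that differ from Dlx5 are in capitals.
Dlx5 (chr6:6878447-6878488, minus strand, exon 3): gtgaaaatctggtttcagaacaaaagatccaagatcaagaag
Dlx3 (chr11:95123409-95123450, plus strand, exon 3): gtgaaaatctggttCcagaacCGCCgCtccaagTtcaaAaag
Dlx6 (chr6:6867041-6867082, plus strand, exon 3): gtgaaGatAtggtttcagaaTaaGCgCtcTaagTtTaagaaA
Msx2 (chr13:53468376-53468417, minus strand, exon 2): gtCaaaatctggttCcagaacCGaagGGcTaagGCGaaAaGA
Dlx3 differed from Dlx5 at 8 of these 42 bases, Dlx6 at 10 and Msx2 at 13. No member had a stretch of at least 100 bases with 95% identity in the transcript of a gene elsewhere in the genome. Runx2 shared 5.87% of its exonic bases with Runx2os1 and Dlx6 shared 4.38% with Dlx6os2, both annotated on the opposite strand. Their levels were low, at 0.705 to 4.22 CPM for Runx2os1 and 0 to 0.229 CPM for Dlx6os2, where CPM is the count of a gene relative to its library's total, scaled by TMM factors. The libraries were made with a stranded kit, but the strand setting of the counting is not given in the sources used here, so reads of these overlaps cannot be told apart by gene. Dlx5 (chr6:6877805-6882085, minus strand) and Dlx6 (chr6:6863334-6868568, plus strand) face each other with 9236 bases between their ends.

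Promoters from RefSeq (GRCm38.p6, 250 bases before to 50 after each start) were at hand for 2 of the 6 members, Runx2 and Msx2, and for Bglap, the osteocalcin gene, a product of mature osteoblasts. They were searched on both strands for ACCACA, the core letters bound by RUNX proteins, and for TAATT, core letters bound by many homeodomain proteins, since the members belong to these 2 classes. Among all 32851 promoters of the same length, 16.8% held the first and 27% the second. Matches are in capitals, and positions are counted from the transcription start.
Runx2, -80 (chr17:44814691-44814718, minus strand): tgaggtcacaaACCACAtgattctgtct
Runx2, 24 (chr17:44814588-44814615, minus strand): cctcacaaacaACCACAgaaccacaagt
Runx2, 32 (chr17:44814580-44814607, minus strand): acaaccacagaACCACAagtgcggtgca
Bglap, -132 (chr3:88384582-88384609, minus strand): cgcaatcacctACCACAgcatcctttgg
Bglap, -88 (chr3:88384539-88384565, minus strand): acatgacccccAATTAgtcctggcagc
Msx2, -187 (chr13:53472952-53472978, minus strand): gactgctcctgTAATTaactcctaatt
Msx2, -176 (chr13:53472941-53472967, minus strand): taattaactccTAATTtatttcaaacg
The Runx2 promoter held the RUNX core 3 times, at -80, 24 and 32, and its windows at 24 and 32 overlap. The Msx2 promoter held the homeodomain core at -187, -186 and -176, where the first 2 matches are the same palindromic letters read on both strands. These are matches of letters only.

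The libraries held 13247122 to 26365620 counted reads each, with a median of 16854427, which put between 117 and 10237 reads of a library on each member other than Msx2. For these 5 genes the spread between mice rather than counting error set the precision. Some libraries stood apart from their group in these markers. In Lean d10 replicate 1 the 8 chondrocyte markers summed to 75957 CPM against 17118 and 14264 in the other Lean d10 calli, and the 8 muscle markers to 1190 CPM against 16530 and 11486. In Lean d5 replicate 3 the chondrocyte markers summed to 12226 CPM against 2862 and 4094, and the muscle markers to 5486 CPM against 21437 and 15787. In Lean d3 replicate 2 the leukocyte markers summed to 14730 CPM against 7050 and 6801, and in DIO d21 replicate 2 the muscle markers to 15040 CPM against 402 and 2624. Calls that changed without 1 of these libraries are given below. All 16 listed osteoblast products and all 8 chondrocyte markers passed the filter on low counts in both diets. Of the epidermal markers, Krt5, Krt14, Krt15, Krt71 and Dsg3 were at 0 in 19 to 29 of the 30 libraries and never above 0.441 CPM, while Krt10 reached 3.97 and Trp63 5.02 CPM.

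Sp7 had the highest level per length of the 6 genes and Msx2 the lowest. Over the 30 libraries, Sp7 averaged 98.9 ± 35.7 RPKM (SD, n = 30; CPM divided by the exon length in kilobases), above 97.5% of 17936 protein-coding genes. Dlx3 averaged 14.3 ± 6.46 RPKM, Dlx5 13.4 ± 5.48, Runx2 10.9 ± 2.42 and Dlx6 8.74 ± 4.17, and these 4 ranges overlapped. With the length of the longest transcript in place of all exons the order of these 4 became Dlx5, Runx2, Dlx3 and Dlx6. Msx2 averaged 0.0872 ± 0.0853 RPKM.

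**Figure D1:**
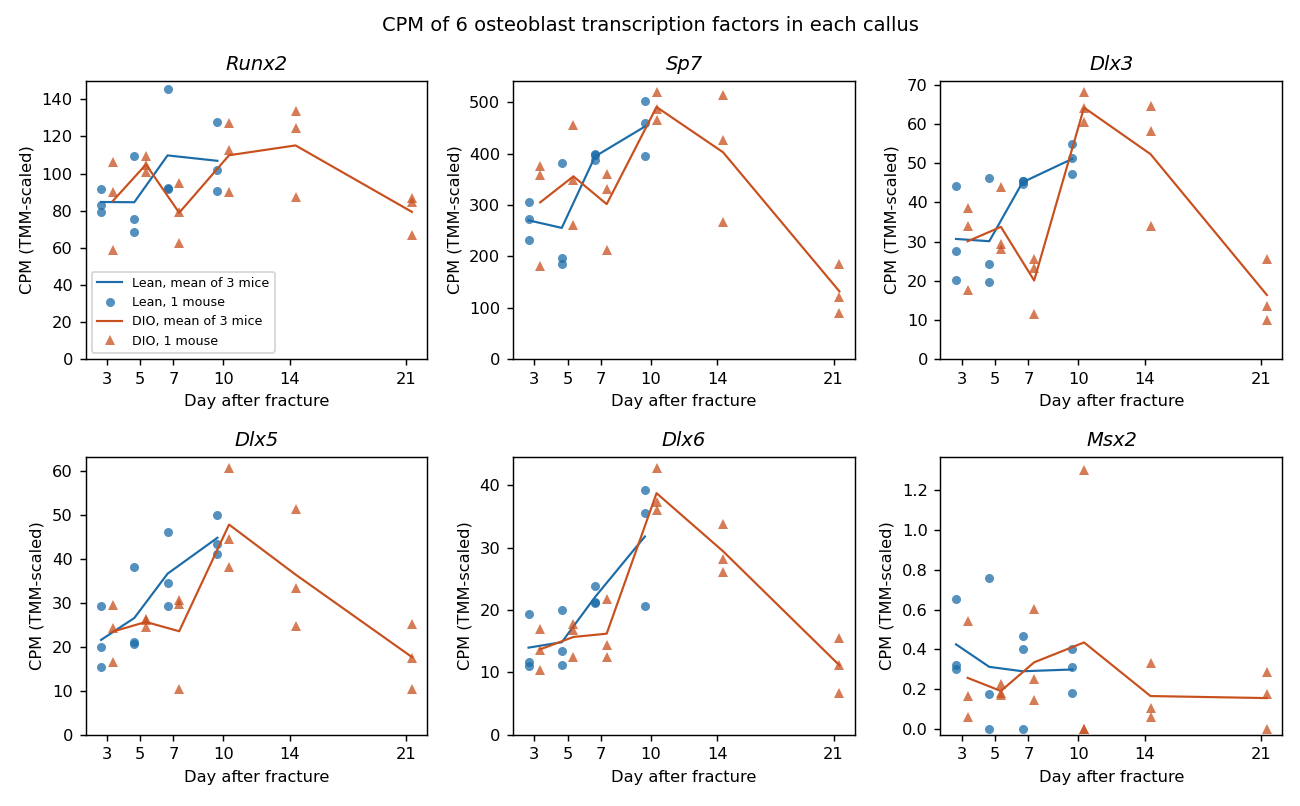
CPM (vertical axis, from 0) of each gene against the day after fracture, with 1 point per mouse (circles, Lean; triangles, DIO) and a line through the mean of 3 mice. Sp7, Dlx3, Dlx5 and Dlx6 have their highest mean on d10 in both diets and their lowest on d21 in DIO, Runx2 stays between 58.9 and 145 CPM, and Msx2 never passes 1.30 CPM.

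Runx2 (ENSMUSG00000039153, chr17:44495987-44814797) varied least, from 58.9 to 145 CPM over 30 libraries, a 2.47-fold range. In Lean calli it measured 91.6, 79.1 and 83.3 CPM on d3, 75.3, 68.8 and 109.6 on d5, 92.3, 91.5 and 145 on d7, and 90.8, 102.0 and 127.7 on d10. In DIO calli it measured 58.9, 106 and 90.1 CPM on d3, 109.3, 100.8 and 104 on d5, 95, 62.4 and 79.2 on d7, 127.1, 89.8 and 113 on d10, 133, 87.3 and 125 on d14, and 66.8, 86.7 and 84.5 on d21. Ordered by mean, the 10 groups ran from DIO d14 (115 ± 24.5 CPM) to DIO d7 (78.9 ± 16.3 CPM), and each overlapped the next. Of the successive days, only DIO d5 and d7, and DIO d14 and d21, did not overlap, the latter by under 1 CPM. From d14 to d21 the log2 fold change was -0.54 (95% interval -0.99 to -0.09), which missed the threshold in edgeR's quasi-likelihood test (adjusted p = 0.085). With all mice kept, Runx2 passed the threshold of an adjusted p under 0.05 in no comparison by edgeR, the tests over all days in DIO (adjusted p = 0.0888) and in Lean calli (adjusted p = 0.328) included.

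Sp7 (ENSMUSG00000060284, chr15:102356606-102367182) was more variable, over a 5.82-fold range. In Lean calli it measured 273, 232 and 306 CPM on d3, 198, 186 and 383 on d5, 387, 398 and 398 on d7, and 396, 503 and 459 on d10. In DIO calli it measured 181, 359 and 375 CPM on d3, 457, 262 and 349 on d5, 331, 213 and 361 on d7, 466, 520.0 and 487 on d10, 427, 268 and 514 on d14, and 89.3, 121 and 186 on d21. All 3 Lean d10 calli were above all Lean d3 calli, and all 3 DIO d21 calli were below every d5 to d14 callus. Ordered by mean, DIO d10 was highest (491 ± 27.3 CPM) and DIO d21 lowest (132 ± 49.2 CPM), and only the lowest step, from Lean d5 to DIO d21, separated neighbouring groups, by under 1 CPM.

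Dlx3 (ENSMUSG00000001510, chr11:95120119-95125296) varied over a 6.76-fold range. In Lean calli it measured 20.2, 27.6 and 44.3 CPM on d3, 24.3, 19.7 and 46.3 on d5, 45.4, 45.5 and 44.6 on d7, and 47.2, 51.4 and 54.9 on d10. In DIO calli it measured 17.8, 38.5 and 34.0 CPM on d3, 44.0, 28 and 29.3 on d5, 25.5, 11.5 and 23.2 on d7, 64.0, 68.1 and 60.6 on d10, 58.2, 34.1 and 64.7 on d14, and 10.1, 13.5 and 25.5 on d21. The DIO d10 calli were the highest as a group (64.2 ± 3.78 CPM), and the DIO d7 (20.1 ± 7.48 CPM) and d21 calli (16.4 ± 8.12 CPM) were the lowest and overlapped each other. The 3 Lean d7 calli lay within 1 CPM of each other, at 45.1 ± 0.484 CPM.

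Dlx5 (ENSMUSG00000029755) measured 19.9, 15.4 and 29.3 CPM in Lean calli on d3, 20.5, 21.0 and 38.1 on d5, 29.3, 34.5 and 46.0 on d7, and 41.1, 43.3 and 49.9 on d10. In DIO calli it measured 16.6, 29.6 and 24.2 CPM on d3, 26.2, 24.5 and 26.1 on d5, 29.7, 10.3 and 30.6 on d7, 60.7, 44.5 and 38.1 on d10, 33.3, 24.7 and 51.2 on d14, and 10.4, 17.5 and 25.1 on d21. The d10 calli of both diets were the highest, at 44.8 ± 4.58 CPM in Lean and 47.8 ± 11.6 CPM in DIO mice, and every neighbouring pair of groups in the order overlapped. Its neighbour Dlx6 (ENSMUSG00000029754) measured 11, 11.6 and 19.3 CPM in Lean calli on d3, 13.4, 11.2 and 20.0 on d5, 21.1, 21.2 and 23.9 on d7, and 20.6, 35.6 and 39.2 on d10. In DIO calli Dlx6 measured 10.4, 13.7 and 17.0 CPM on d3, 17.8, 12.4 and 16.8 on d5, 21.8, 12.4 and 14.4 on d7, 42.8, 37.4 and 36.1 on d10, 28.3, 26.2 and 33.9 on d14, and 6.73, 11.2 and 15.5 on d21. The 3 DIO d10 calli were above every DIO callus of the other days, and the 3 d14 calli were above those of d3, d5, d7 and d21.

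Msx2 (ENSMUSG00000021469, chr13:53466884-53473074) was barely detected. Its raw counts were 0 to 17 per library, with 0 in 5 libraries and under 3 in 9, and its highest value, 1.30 CPM, was DIO d10 replicate 1, while the other 2 DIO d10 calli had 0 counts. Of the main fits, it passed the filter on low counts only in that of 24 libraries joining both diets over d3 to d10. No change of the diet difference was detectable there at this depth, and Msx2 was not tested between diets within a day.

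The change over days was asked first within Lean mice, in 1 fit of the 12 Lean libraries with 16471 genes tested. A gene is called changed here at an adjusted p under 0.05 in edgeR's quasi-likelihood test, with Benjamini-Hochberg adjustment over all genes tested. Sp7, Dlx5 and Dlx6 rose between d3 and d10, 3 of the 5 members tested, where 15.2% of all genes tested were called higher and 29.3% were called in either direction. Sp7 rose by 0.78 ± 0.25 on the log2 scale (SE, n = 3 and 3; adjusted p = 0.0334), Dlx5 by 1.09 ± 0.28 (adjusted p = 0.0146) and Dlx6 by 1.22 ± 0.30 (adjusted p = 0.0105), with no overlap between days for any of them. The share of all genes without overlap was not computed, here or below, so non-overlap is given as a description only. Dlx3 had a log2 fold change of 0.77 ± 0.31 (adjusted p = 0.0818), also without overlap. Runx2 had 0.37 ± 0.22 (adjusted p = 0.223), and its days overlapped. As a callus holds many cell types, more cells of a type and more RNA per cell cannot be told apart in these changes. Over the same days the summed chondrocyte markers went from 997 to 1613 CPM on d3 to 14264 to 75957 CPM on d10, with 8 of 8 higher, the osteoclast markers from 592 to 643 CPM to 8264 to 11891 CPM, with 6 of 6 higher, and the leukocyte markers from 6801 to 14730 CPM to 590 to 4072 CPM, with 4 of 8 lower and 1 higher. The hypertrophic chondrocyte markers went from 1769 to 2181 CPM to 10266 to 24926 CPM, with 4 of 6 higher. The part of these cells in the result was not tested.

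Without Lean d10 replicate 1, the library rich in cartilage genes, the log2 fold changes from d3 to d10 were 0.87 for Sp7 (adjusted p = 0.0382), 1.15 for Dlx5 (adjusted p = 0.0234) and 1.46 for Dlx6 (adjusted p = 0.00428). The call of Sp7 was lost without Lean d3 replicate 1 (adjusted p = 0.0815), Lean d3 replicate 2 (0.124), Lean d10 replicate 2 (0.0964) or Lean d10 replicate 3 (0.0621), and in a fit of all 30 libraries (0.0632). The call of Dlx5 was lost without Lean d3 replicate 1 (adjusted p = 0.0527) or Lean d3 replicate 2 (0.0646), and Dlx3 was called without Lean d3 replicate 3 (log2 fold change 1.14, adjusted p = 0.0211). The call of Dlx6 held without any 1 of the 6 libraries, with adjusted p from 0.00428 to 0.0496.

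At the shorter Lean intervals 0 of 5 members were called by edgeR: between d3 and d5 (0.449% of all genes called), between d3 and d7 (1.67%) and between d7 and d10 (2.73%). DESeq2 also called 0 members at these intervals, and 0, 3 and 0 members had an unadjusted p under 0.05. The 3 were Sp7, Dlx5 and Dlx6 between d3 and d7, with log2 fold changes of 0.57, 0.78 and 0.68. Tested over all 4 Lean days at once, Dlx6 alone was called by edgeR (adjusted p = 0.0314), 1 of 5 members against 19% of all genes, while Dlx5 (adjusted p = 0.0551) and Sp7 (adjusted p = 0.0576) missed the threshold. Without Lean d5 replicate 3 the test over all days called 4 members and without Lean d3 replicate 3 it called 2. It called 0 without Lean d3 replicate 1 or 2, Lean d5 replicate 1 or 2, Lean d7 replicate 2, or Lean d10 replicate 2 or 3.

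In the fit of 18 DIO libraries with 16995 genes tested, Dlx3 and Dlx6 rose between d7 and d10, 2 of 5 members where 6.01% of all genes were called higher and 13% in either direction. Dlx3 rose by 1.68 ± 0.36 on the log2 scale (adjusted p = 0.00475), which is 3.19-fold, and Dlx6 by 1.26 ± 0.27 (adjusted p = 0.00452), which is 2.39-fold. Dlx5 had a log2 fold change of 1.02 ± 0.37 (adjusted p = 0.0801 by edgeR, but 0.0429 by DESeq2 and 0.0293 without the filter), Sp7 of 0.70 ± 0.32 (adjusted p = 0.163) and Runx2 of 0.48 ± 0.22 (adjusted p = 0.162). The d10 calli did not overlap those of d7 for Sp7, Dlx3, Dlx5 or Dlx6, and overlapped for Runx2. Without the share over all genes, this adds no support to the values not called. Over the same interval the summed chondrocyte markers went from 19137 to 45183 CPM down to 4444 to 9047 CPM, with 7 of 8 lower, and the osteoclast markers from 931 to 1698 CPM up to 9903 to 13042 CPM, with 6 of 6 higher. The adipocyte markers went from 141 to 175 CPM up to 234 to 394 CPM, with 4 of 6 higher. The hypertrophic chondrocyte markers were 4163 to 10125 CPM on d7 and 6739 to 9534 CPM on d10. Of these 6 markers 1 was higher, Spp1, which is also in the list of osteoblast products below. The median log2 fold change of the 6 was -0.60. The part of chondrocytes, osteoclasts and adipocytes in the rise of Dlx3 and Dlx6 was not tested.

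Between d3 and d10 in DIO mice, Dlx3 (log2 fold change 1.09 ± 0.35, adjusted p = 0.0354) and Dlx6 (1.5 ± 0.27, adjusted p = 0.000967) were called higher, 2 of 5 members, where 11.1% of all genes were called higher and 21.8% in either direction. Dlx5 missed the threshold at 1.03 ± 0.37 (adjusted p = 0.0557) but passed it by DESeq2 (adjusted p = 0.0294), without the filter (0.0233) and in the fit of all 30 libraries (0.0422), and Sp7 measured 0.69 ± 0.32 (adjusted p = 0.13). The call of Dlx3 was lost when any library but DIO d3 replicate 2 was left out: without DIO d3 replicate 1 the log2 fold change was 0.83 (adjusted p = 0.137), and it was 1.2 without DIO d3 replicate 3 (0.0621), 1.09 without DIO d10 replicate 1 (0.0617), 1.05 without DIO d10 replicate 2 (0.0948) and 1.13 without DIO d10 replicate 3 (0.0724). Between these days 7 of 8 chondrocyte, 6 of 6 osteoclast and 3 of 6 adipocyte markers were higher, and of the leukocyte markers 2 of 8 were higher and 2 lower. Of the hypertrophic chondrocyte markers 3 of 6 were higher and 1 lower. Their part in the result was not tested. Between d3 and d5 (1.68% of all genes called), d3 and d7 (7.30%) and d10 and d14 (0.759%), 0 of 5 members were called by edgeR or by DESeq2, and 0 had an unadjusted p under 0.05.

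From d14 to d21 in DIO mice, Sp7, Dlx3 and Dlx6 fell. Sp7 fell by 1.61 on the log2 scale (SE 0.32, adjusted p = 0.00323), Dlx3 by 1.67 (SE 0.36, adjusted p = 0.00513) and Dlx6 by 1.40 (SE 0.27, adjusted p = 0.00253), to 3.05-fold, 3.19-fold and 2.64-fold lower levels. These are 3 of 5 members, where 9.03% of all genes tested were called lower and 19.6% in either direction. Dlx5 had a log2 fold change of -1.04 ± 0.37 (adjusted p = 0.0563), and its 2 groups overlapped, whereas those of Sp7, Dlx3 and Dlx6 did not. By DESeq2 (adjusted p = 0.0273), without the filter (0.0204) and in the fit of all 30 libraries (0.0434), Dlx5 was called as well. The 3 calls held without any 1 of the 6 libraries, with adjusted p of at most 0.0229 for Sp7, 0.0333 for Dlx3 and 0.0159 for Dlx6. Without DIO d14 replicate 2, the lowest d14 callus for all 5 genes, 5 of 5 were called, with Runx2 at -0.71 (adjusted p = 0.0344) and Dlx5 at -1.27 (adjusted p = 0.0322). That callus held the most muscle markers of its group, 27453 CPM against 11310 and 5434 CPM. Dlx5 was also called without DIO d21 replicate 3 (-1.39, adjusted p = 0.0311).

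Markers of other cell types also differed between the d14 and d21 calli. On d21 the summed leukocyte markers were 6237 to 16684 CPM against 2113 to 4984 CPM on d14, with 3 of 8 higher and 1 lower, adipocyte markers 844 to 939 CPM against 504 to 724 CPM, with 0 of 6 called, and muscle markers 402 to 15040 CPM against 5434 to 27453 CPM, with 1 of 8 lower. Chondrocyte markers were 1169 to 2359 CPM against 1784 to 3493 CPM, with 0 of 8 called, and osteoclast markers 5278 to 7315 CPM against 7380 to 14624 CPM, with 2 of 6 lower. Hypertrophic chondrocyte markers were 3898 to 4778 CPM against 4248 to 7200.5 CPM, with 1 of 6 lower (Col10a1). The part of these cells in the fall of the members was not tested. Within d21, the callus with the most leukocyte markers (replicate 1, 16684 CPM) had the lowest Sp7, Dlx3, Dlx5 and Dlx6. Replicate 2, with the fewest (6237 CPM), was lower in these genes than replicate 3 (9053 CPM). The muscle markers also differed, at 402, 15040 and 2624 CPM in replicates 1, 2 and 3. Without replicate 1 the log2 fold changes from d14 were -1.40 for Sp7, -1.43 for Dlx3, -0.78 for Dlx5 and -1.15 for Dlx6.

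**Figure D2:**
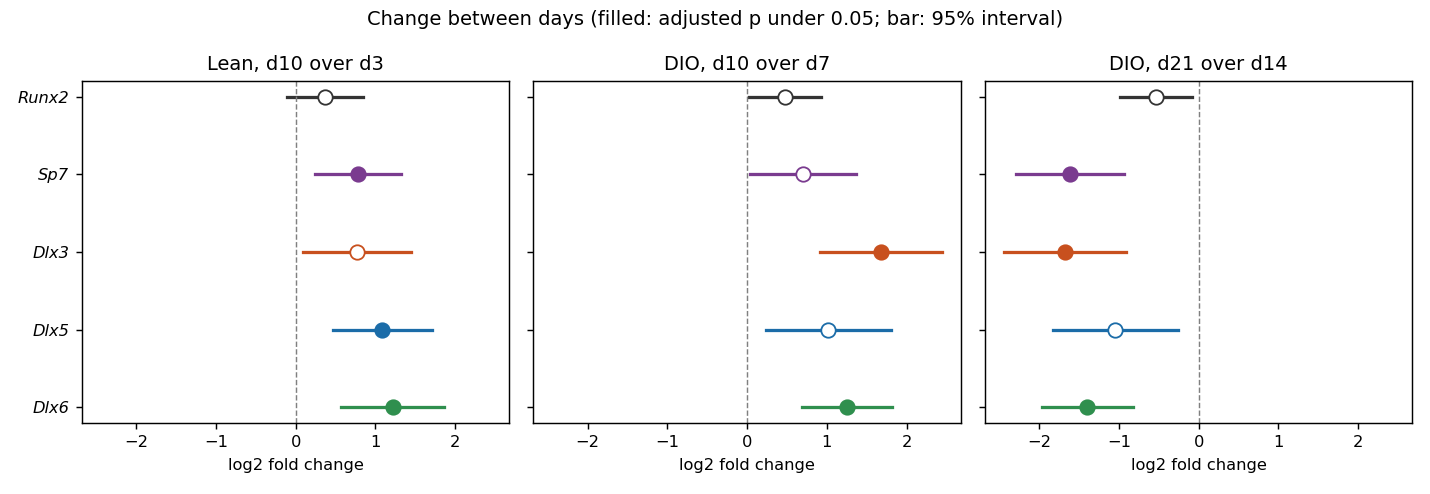
Log2 fold change (horizontal axis) of 5 genes between days, with 95% intervals from edgeR; filled circles have an adjusted p under 0.05 and open circles do not. Sp7, Dlx5 and Dlx6 rise in Lean mice from d3 to d10, Dlx3 and Dlx6 rise in DIO mice from d7 to d10, and Sp7, Dlx3 and Dlx6 fall in DIO mice from d14 to d21, while Runx2 is an open circle in all 3 panels.

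Set against d3, only Sp7 was lower on d21 in DIO mice (log2 fold change -1.21 ± 0.32, adjusted p = 0.00523), 1 of 5 members where 21.8% of all genes were called lower and 45.3% in either direction, and 1 d3 callus (181 CPM) overlapped the d21 range. Between these days 5 of 8 leukocyte, 6 of 6 adipocyte and 6 of 6 osteoclast markers were higher, and 3 of 6 endothelial and 2 of 8 muscle markers were lower. Of the hypertrophic chondrocyte markers 2 of 6 were higher and 3 lower, and of the chondrocyte markers 1 of 8 was higher and 2 lower. Their part in the fall of Sp7 was not tested. Dlx3 stood at -0.88 ± 0.36 (adjusted p = 0.0542) and was called without DIO d3 replicate 1 (-1.17, adjusted p = 0.016) or DIO d21 replicate 3 (-1.38, adjusted p = 0.00762), and by DESeq2 (0.0379) and without the filter (0.0199). Dlx5 (-0.41 ± 0.37, adjusted p = 0.388), Dlx6 (-0.30 ± 0.27, adjusted p = 0.393) and Runx2 (-0.10 ± 0.21, adjusted p = 0.723) did not pass the threshold. Over all 6 DIO days, Sp7, Dlx3, Dlx5 and Dlx6 were called, 4 of 5 members, at a time course in which 59.1% of all genes were called.

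The diets were compared within each day, 3 mice against 3, to ask whether obesity went with a different level of these factors. No member was called by edgeR on any of the 4 days. In order of day, 0%, 1.08%, 2.32% and 0% of all genes tested were called by edgeR, DESeq2 called 753, 1116, 922 and 56 genes, and 2374, 2913, 2614 and 1082 genes had an unadjusted p under 0.05. Of the members, DESeq2 called 1, Dlx3 on d7, and an unadjusted p under 0.05 was found for Dlx3 on d7 and on d10.

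On d7, Dlx3 measured 25.5, 11.5 and 23.2 CPM in DIO against 45.4, 45.5 and 44.6 CPM in Lean calli, so that all 3 DIO values were below all 3 Lean values. The log2 fold change, DIO over Lean, was -1.15 ± 0.27 (95% interval -1.75 to -0.56), a level 2.23-fold lower, with an adjusted p of 0.0598 by edgeR, which missed the threshold. DESeq2 gave -1.15 with an adjusted p of 0.00211, and the fit without a filter on low counts gave an adjusted p of 0.00961. RLE factors (adjusted p = 0.0582) and a fit of all 30 libraries (adjusted p = 0.0669) also missed it, and without DIO d7 replicate 3 it was passed (-1.26, adjusted p = 0.0485). On d10 Dlx3 measured 64.0, 68.1 and 60.6 CPM in DIO calli, above the 47.2, 51.4 and 54.9 CPM of Lean calli. The log2 fold change was 0.34 ± 0.14, which missed the threshold (adjusted p = 0.686 by edgeR), and 0.27 without Lean d10 replicate 1. Between these days the diet difference of Dlx3 moved by 1.5 ± 0.47 on the log2 scale (adjusted p = 0.064 by edgeR, 0.0257 by DESeq2 and 0.042 without the filter, and 0.162 by edgeR without Lean d10 replicate 1), in a fit of 24 libraries in which 5.07% of all genes were called. No member was called in this test by edgeR, or in the test of any change of the diet difference over d3 to d10 (1.65% of all genes called), where Dlx3 had the lowest adjusted p (0.182) and alone an unadjusted p under 0.05; DESeq2 called 0 members there.

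Markers of other cell types also differed between the diets on d7. The summed chondrocyte markers were 19137 to 45183 CPM in DIO and 6276 to 17889 CPM in Lean calli, with 2 of 8 higher, and the osteoclast markers were 931 to 1698 CPM against 2640 to 3543 CPM, with 5 of 5 tested lower. The leukocyte markers were 1725 to 6434 CPM in DIO and 5008 to 6961 CPM in Lean calli, with 2 of 8 lower. The epidermal markers, which would mark skin carried with the callus, summed to 4.04 to 6.11 CPM in DIO and 2.57 to 4.04 CPM in Lean calli, so they were low in both. On d10 the chondrocyte markers summed to 4444 to 9047 CPM in DIO and 14264 to 75957 CPM in Lean calli. The muscle markers summed to 20015 to 27992 CPM against 1190 to 16530 CPM, with 0 of 8 called in either list. For the change of the diet difference from d7 to d10, 7 of 8 chondrocyte and 2 of 6 hypertrophic chondrocyte markers were lower. Higher were 5 of 6 osteoclast, 1 of 8 leukocyte and 1 of 6 adipocyte markers. The part of these cells in the d7 difference of Dlx3, or in its change to d10, was not tested.

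For the other 4 members the d7 values were also lower in DIO mice on average, without passing the threshold. Dlx5 stood at -0.62 ± 0.36 (95% interval -1.43 to 0.19), Runx2 at -0.47 ± 0.23 (-0.99 to 0.06), Dlx6 at -0.43 ± 0.24 (-0.97 to 0.10) and Sp7 at -0.37 ± 0.21 (-0.85 to 0.10). Of these, Sp7 did not overlap between diets, with 213 to 361 CPM in DIO and 387 to 398 CPM in Lean calli. On d3 and d5 the log2 fold changes of the 5 members lay between -0.05 and 0.48 and both diets overlapped, and on d10 they lay between 0.05 and 0.34, with 95% intervals reaching from -0.39 to 0.85. Without Lean d10 replicate 1 the d10 values lay between -0.07 for Runx2 and 0.27 for Dlx3, that of Dlx6 going from 0.30 to 0.05. Differences inside these intervals were not detectable with 3 mice a group. Without Lean d5 replicate 3, the Lean d5 callus highest in all 5 genes, Runx2 on d5 went from 0.31 ± 0.17 to 0.55 and was called (adjusted p = 0.035), and Sp7 went from 0.48 ± 0.31 to 0.89 (adjusted p = 0.0607).

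**Figure D3:**
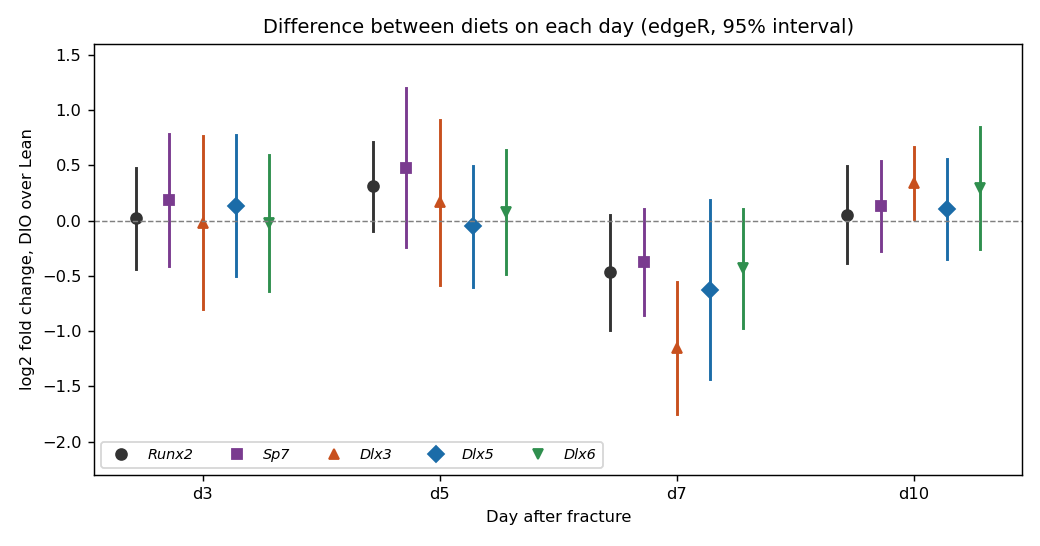
Log2 fold change of DIO over Lean calli (vertical axis) for 5 genes on d3, d5, d7 and d10, with 95% intervals from edgeR and 3 mice per diet and day; the dashed line marks no difference. On d7 all 5 estimates are below 0, from -1.15 for Dlx3 to -0.37 for Sp7, and on d10 all 5 are above 0, from 0.05 for Runx2 to 0.34 for Dlx3.

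Counts of Sp7, Dlx3, Dlx5 and Dlx6 relative to those of Runx2 were compared between groups, as a description. The ratio of Sp7 to Runx2 counts, which needs no scaling between libraries, was 3.20, 3.07 and 4.12 on DIO d14 and 1.34, 1.39 and 2.2 on DIO d21, and its values in the other groups ran from 2.60 to 5.79. The 3 d21 calli had the lowest ratios of all 30 libraries. The mean log2 ratio was lower by 1.10 on d21 (difference -1.10, two-sided exact permutation p = 0.1, the smallest that 3 against 3 allows), and this ratio was chosen after its values were seen. Dlx3 to Runx2 was 0.437, 0.390 and 0.519 on d14 and 0.151, 0.156 and 0.302 on d21 (difference -1.21, exact permutation p = 0.1). Dlx6 to Runx2 also separated d14 from d21 (difference -0.95, exact permutation p = 0.1), whereas Dlx5 to Runx2 overlapped (difference -0.55, exact permutation p = 0.3). In Lean mice Dlx5 to Runx2 was higher on d10 than d3 without overlap (difference 0.78, exact permutation p = 0.1). On d7 the ratio of Dlx3 to Runx2 was 0.268, 0.185 and 0.293 in DIO and 0.492, 0.497 and 0.306 in Lean calli, again without overlap (difference -0.79, exact permutation p = 0.1), while those of Sp7 (difference 0.04, exact permutation p = 0.9) and Dlx6 (difference -0.02, exact permutation p = 0.9) overlapped. With 16 such ratios compared, 3 mice against 3 cannot reach a p under 0.05.

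**Figure D4:**
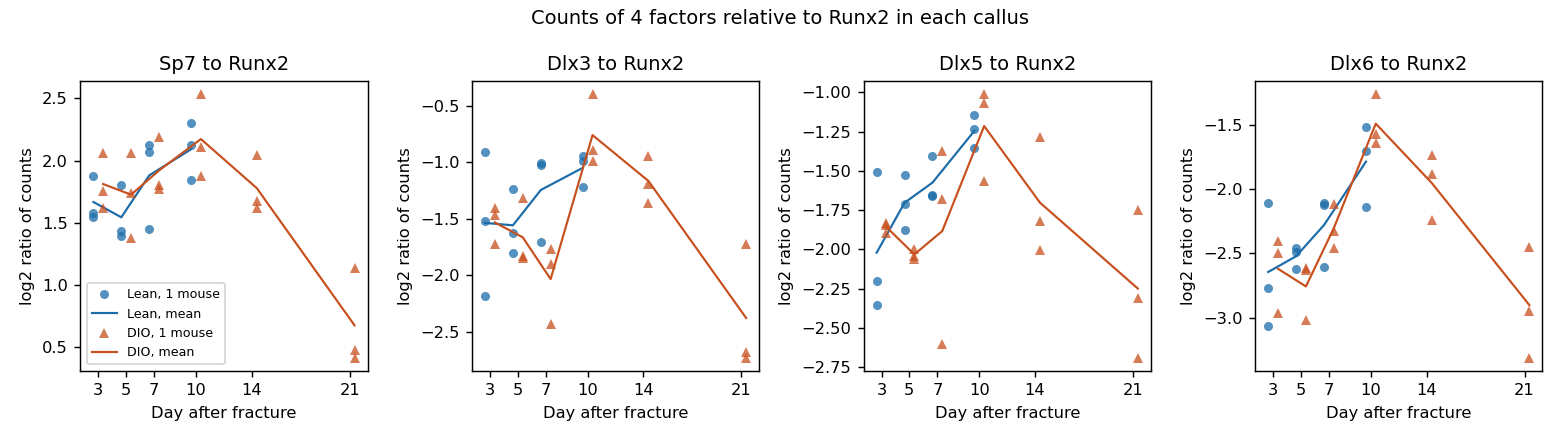
Log2 ratio of the counts of Sp7, Dlx3, Dlx5 and Dlx6 to those of Runx2 (vertical axes, each with its own range, not starting at 0) against the day after fracture, with 1 point per mouse and a line through the mean of 3. The Sp7 ratio of the 3 DIO d21 calli lies below that of all other calli, and the Dlx3 ratio of DIO d7 lies below that of Lean d7.

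Relatives of the members were tested in the same fits. The shares of all genes called, given above for each comparison, apply to this and the following lists too. Of 7 listed relatives (Runx1, Runx3, Cbfb, Dlx1, Dlx2, Dlx4 and Msx1), 5 passed the filter in each of the day courses. In Lean mice between d3 and d10, 0 were called by edgeR, and in DIO mice Runx1, the runt factor of blood stem cells, fell between d7 and d10 (log2 fold change -0.74 ± 0.16, adjusted p = 0.0042), as 1 of 5. Between d14 and d21, 0 of 5 were called, with Msx1 at -0.92 ± 0.33 (adjusted p = 0.0553). Between d3 and d21, 3 of 5 were lower, where 21.8% of all genes were called lower and 45.3% in either direction. They were Runx3 (-0.97 ± 0.21, adjusted p = 0.00144), Msx1 (-1.38 ± 0.33, adjusted p = 0.00243) and Runx1 (-0.50 ± 0.16, adjusted p = 0.0155). Runx1 was also lower between d3 and d10 (-0.51 ± 0.16, adjusted p = 0.0286).

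Other regulators of osteoblast transcription, a list of 16, gave 5 higher and 0 lower in Lean mice between d3 and d10, with a median log2 fold change of 0.29 beside 0.02 for all genes. Vdr, the vitamin D receptor, rose by 2.09 ± 0.29 (adjusted p = 0.00064) and Tcf7l2, a WNT effector, by 1.42 ± 0.25 (adjusted p = 0.00196). In DIO mice between d7 and d10, 3 of 16 rose and 3 fell, among them Vdr (1.44 ± 0.26, adjusted p = 0.00128) and Etv5 (1.22 ± 0.22, adjusted p = 0.00139), which rose, and Junb (-0.94 ± 0.18, adjusted p = 0.00195), an AP-1 subunit, which fell. From d14 to d21, 0 rose and 4 of 16 fell (median -0.31 beside -0.03 for all genes), including Yap1 (-0.76 ± 0.13, adjusted p = 0.00122), a Hippo pathway effector, and Mef2c (-0.71 ± 0.19, adjusted p = 0.0167).

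Genes listed as inhibitors of RUNX2 or of osteoblast differentiation moved in both directions. Of 10, 3 rose and 3 fell in Lean mice between d3 and d10, and 0 rose and 4 fell in DIO mice between d14 and d21. Hey1, a NOTCH and BMP target that represses RUNX2 activity, rose with the members in Lean mice (1.35 ± 0.35, adjusted p = 0.0146) and in DIO mice between d7 and d10 (1.78 ± 0.34, adjusted p = 0.00198), and fell by 2.04 (SE 0.34, adjusted p = 0.000906) between d14 and d21. On d7 Hey1 was lower in DIO than Lean calli (-1.03 ± 0.20, adjusted p = 0.0323), the comparison in which Dlx3 had an adjusted p of 0.0598. Sox9, the cartilage factor, went the other way on d7, at 1.90 ± 0.39 higher in DIO calli (adjusted p = 0.041), and fell by 3.03 (SE 0.32, adjusted p = 1.15e-05) in DIO mice between d7 and d10.

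BMP response genes, a list of 8 read because Dlx5 and Msx2 respond to BMP, gave 4 higher and 0 lower in DIO mice between d7 and d10, and 1 higher and 5 lower between d14 and d21. Id4 rose by 1.94 ± 0.33 (adjusted p = 0.000844) and Smad6 by 1.28 ± 0.31 (adjusted p = 0.00957) in the first interval, and Id3 fell by 1.34 (SE 0.25, adjusted p = 0.00175) and Bambi by 1.21 (SE 0.27, adjusted p = 0.00668) in the second. In Lean mice between d3 and d10, 1 of 8 rose, Bambi (1.05 ± 0.31, adjusted p = 0.0245), and 1 fell, Id2 (-0.68 ± 0.22, adjusted p = 0.0395).

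Osteoblast products, a list of 16, rose nearly throughout in Lean mice. Of them 14 of 16 rose between d3 and d10 and 0 fell, with a median log2 fold change of 1.95 beside 0.02 for all genes. Spp1 (osteopontin) rose by 2.46 ± 0.26 (adjusted p = 0.000155) and Mmp13, a collagenase, by 2.88 ± 0.37 (adjusted p = 0.000418), both of which hypertrophic chondrocytes make too. In DIO mice 6 of 16 rose between d7 and d10, led by Bglap (3.56 ± 0.34, adjusted p = 3.8e-06), whose near-identical neighbours Bglap2 and Bglap3 make the split of its reads uncertain. On d7 Bglap was lower in DIO than Lean calli (-2.64 ± 0.39, adjusted p = 0.0156), as 1 of 2 products called. The other was Bglap2 (-2.40 ± 0.40, adjusted p = 0.0212), so these 2 calls may rest on the same reads. From d14 to d21, 6 of 16 fell and 0 rose, among them Panx3 (-2.43 ± 0.45, adjusted p = 0.0019), a channel protein of osteoblasts and hypertrophic chondrocytes, Ifitm5 (-1.22 ± 0.28, adjusted p = 0.00814) and Alpl, the alkaline phosphatase (-1.22 ± 0.35, adjusted p = 0.0241), while Bglap stood at -0.69 ± 0.30 (adjusted p = 0.116). Between DIO d3 and d21, 6 of the 16 osteoblast products were higher and 6 lower. Of the 6 osteocyte products 4 were tested. Of these, 3 rose in Lean mice between d3 and d10, 3 rose in DIO mice between d7 and d10, and 0 were called between d14 and d21. In that last interval the list had a median log2 fold change of -0.36. Sost, the WNT antagonist of osteocytes, measured 0.36 ± 0.31 (adjusted p = 0.429), Dmp1 -0.66 ± 0.38 (adjusted p = 0.225) and Phospho1 -1.10 ± 0.63 (adjusted p = 0.223).

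**Figure D5:**
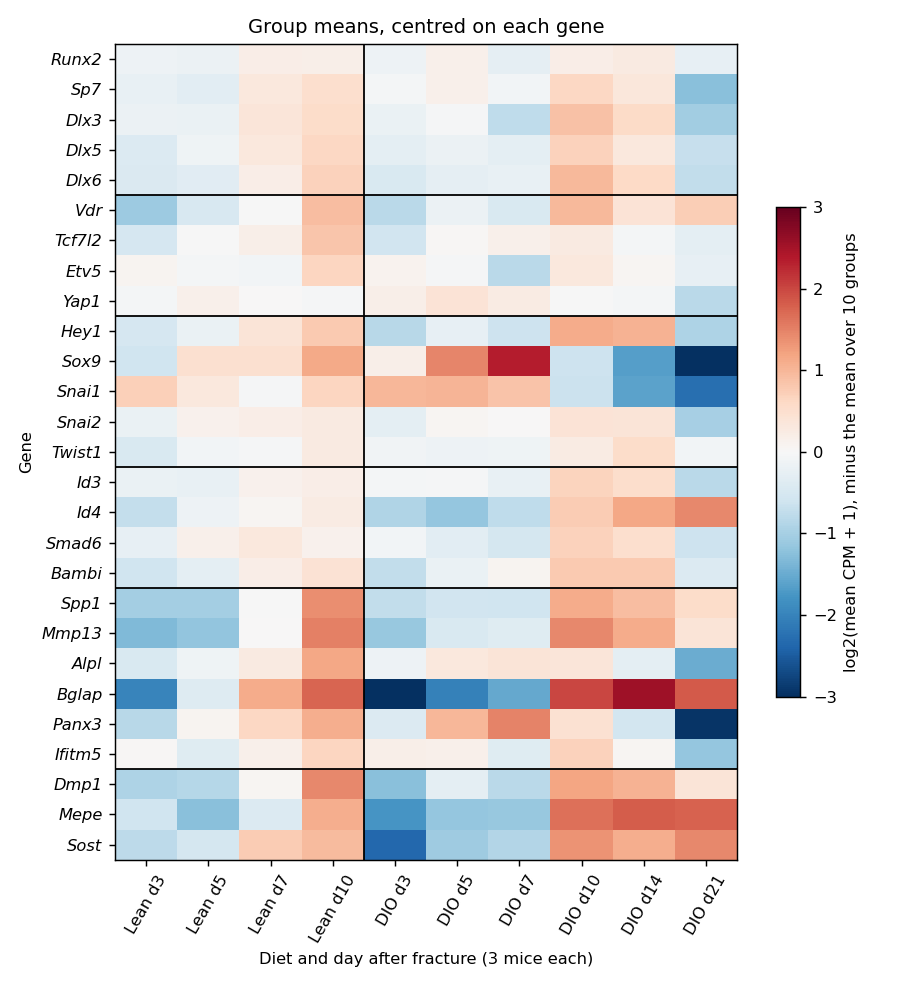
Log2(mean CPM + 1) of each group of 3 mice, minus the mean over the 10 groups, with red above and blue below that mean; lines separate the members, other regulators, inhibitors, BMP response genes, osteoblast products and osteocyte products, and the vertical line the diets. Sp7, Dlx3, Dlx5 and Dlx6 have their highest value within each diet on d10 and are blue on DIO d21. In that column Vdr, Id4, Spp1, Mmp13, Bglap, Dmp1, Mepe and Sost are above their means, and all other rows are below.

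Across the 30 libraries, Sp7, Dlx3, Dlx5 and Dlx6 were correlated with each other at Pearson r of 0.83 to 0.90 on log2 CPM, and Runx2 with them at 0.71 to 0.79. After each group's mean was removed these values were 0.74 to 0.91 and 0.63 to 0.74. The points share libraries, mice and tissue makeup, so these are descriptions. Among 13494 protein-coding genes with a mean of at least 1 CPM, the genes most like Dlx6 were Hey1 (r = 0.94), Slx1b (0.91) and Rgs3 (0.89), and those most like Sp7 were Fam167a (0.92), H2afy2 (0.90) and Dlx3 (0.90). Dlx3 was most like Dlx5 (0.90), Sp7 (0.90) and Hey1 (0.88), and Dlx5 most like Dlx3 (0.90), Dlx6 (0.87) and Lpar3 (0.86). Runx2 was most like Fat1 (0.86), Tmtc2 (0.85) and Ust (0.82), none of them a member.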

How the data were processed

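Bulk poly-A RNA libraries of 30 fracture calli were used, 3 mice per group. The authors deposited raw read counts per Ensembl gene: reads were trimmed with bcl2fastq and BBDuk, aligned to GRCm38 with HISAT2 2.1.0 and counted per gene with HTSeq. The HTSeq version, strand setting and annotation are not given in the sources used here. Groups and replicate numbers came from the sample labels, which call the mice biological repeats. No 2 libraries of a group agreed within sampling noise.

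Differences were tested with edgeR 4.0.16 (R 4.3.3; quasi-likelihood test, TMM factors, filterByExpr, Benjamini-Hochberg adjustment over all genes tested, threshold 0.05). Day changes were fitted within each diet (12 Lean or 18 DIO libraries), diet differences within each day (6 libraries), and their change over days in 24 libraries. Alternatives were RLE factors, DESeq2 1.42.0, no filter beyond 1 count, a replicate block, all 30 libraries in 1 fit, and each mouse left out. The code was tested on simulated data. Exon lengths and positions came from GENCODE M21, near-identical transcripts from BLAST 2.17.0, and figures from matplotlib 3.10.9. Ratios to Runx2 were compared by exact permutation.

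The 6 genes and the gene and marker lists were chosen with earlier results of these data known, and each list was taken whole. The 3 genes with the lowest adjusted p of a list, the 3 closest by correlation of log2 CPM to each member, and genes singled out after their values were seen are the ones named. Depth was 13247122 to 26365620 counts per library, so that counting error was small for all members but Msx2, whose Poisson error is large. Values of 1 listed gene are not reported here.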

Additional observations from a re-analysis of the deposited data

How the results depend on the processing

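Of 11 called differences of single members, none changed sign in any alternative; 1 of 55 was lost in the alternatives that kept all mice and 11 of 66 when 1 mouse was left out. Of the values not called, 18 of 220 and 8 of 294 were gained. Counts of called members moved as follows, and the cause was not tested. Without the filter, 3 were called over all Lean days, 2 between DIO d3 and d21, 1 between diets on d7 and 1 for the change of the diet difference from d7 to d10, and DESeq2 gave the same 4 counts (3, 2, 1 and 1). Both also called 3 between DIO d3 and d10, 3 between DIO d7 and d10 and 4 between DIO d14 and d21, each 1 more (Dlx5). Leaving out 1 mouse gave 1 to 4 members between Lean d3 and d10, 0 to 4 over all Lean days, 1 to 2 between DIO d3 and d10, 3 to 5 between DIO d14 and d21, 1 to 2 between DIO d3 and d21, and 0 to 1 between diets on d5 and on d7.

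Replicate numbers were not treated as pairs in the main fits: in no comparison did all 3 same-numbered pairs correlate above 0.1 (range -0.399 to 0.32). This cut cannot exclude a batch shared by number. Between Lean d3 and d10 same-numbered pairs averaged 0.174 and others -0.0883, and between diets on d5 -0.205 and 0.102. With a replicate block, edgeR called 1479 genes in place of 450 between Lean d7 and d10. Between diets it called 325 in place of 0 on d3 and 0 in place of 170 on d5. With the replicate block, 1 member was called between Lean d3 and d7, 4 between Lean d3 and d10 (with Dlx3, adjusted p = 0.0271, edgeR), 4 over all Lean days, 2 between DIO d3 and d21 and 1 between diets on d7 (Dlx3, adjusted p = 0.0441, edgeR), and the log2 diet differences became -0.016 for Runx2 and 0.0045 for Dlx6 on d3 and 0.013 for Dlx5 on d5.

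Differences near 0 changed sign. Without the filter the d3 diet difference was 0.0036 for Dlx3 and 0.00026 for Dlx6. Leaving out 1 mouse, Runx2 ranged from -0.34 to 0.061 between DIO d3 and d21. Between diets, Runx2 ranged from -0.17 to 0.23 on d3 and from -0.066 to 0.20 on d10, Dlx3 from -0.24 to 0.35 on d3 and from -0.070 to 0.62 on d5, Dlx5 from -0.070 to 0.43 on d3, -0.21 to 0.31 on d5 and -0.10 to 0.24 on d10, and Dlx6 from -0.19 to 0.29 on d3 and -0.088 to 0.36 on d5. RLE in place of TMM factors moved the median of all genes by at most 0.025. In an alternative added after seeing the data, leaving out 1 mouse moved the log2 ratio to Runx2, DIO d21 minus d14, between -1.33 and -0.97 for Sp7 and between -1.54 and -1.04 for Dlx3.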
